A study of Homo sapiens with 6 samples.

Results

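The 10 genes for fatty acid synthesis and desaturation were ACLY, ACACA, ACACB, FASN, ELOVL5, ELOVL6, SCD, FADS1, FADS2 and ACSL3, found by name among the 33451 genes of the count table. Each name matched 1 row, and all 10 passed the low-count filter that left 18183 genes for testing. MDA-MB-453, an established human breast cancer cell line, had been cultured for 5 days with 100 nM 25(OH)D, the main circulating form of vitamin D, or with 0.1% alcohol as the solvent. Both groups were grown in DMEM with 10% fetal bovine serum, carried no genetic change made for the experiment, and gave 3 mRNA libraries each. The study describes its replicates as biological, and since the labels name no separate cultures, the p-values measure the spread between these libraries. A single cell line at a single dose and time limits the comparison to those conditions. In bulk RNA, a change in the share of some cells and a change per cell cannot be told apart.

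The libraries held between 33268860 and 40928176 counts, of which mitochondrial genes took between 7.85% and 7.99% in control and between 8.89% and 9.24% in 25(OH)D. Of 14 markers of breast epithelial and luminal cells, 12 passed the low-count filter. The summed level of all 14 was between 12912 and 13391 CPM in control and between 10619 and 10976 CPM in 25(OH)D. For the sums of marker lists, CPM are counts divided by the plain library total, without TMM factors. For the level of a gene, CPM are counts divided by a library size that was scaled with TMM factors. ESR1 and PGR had at most 4 and 8 counts in any library. Markers of endothelial cells, leukocytes and adipocytes had at most 12 counts in any library, with 2 of 3, 4 of 4 and 4 of 5 listed, and each list summed to at most 0.493 CPM in control and 0.421 CPM in 25(OH)D. Among 5 fibroblast markers 4 were listed, only COL1A1 passed the filter, and the summed level was between 36.8 and 39.6 CPM in control and between 31.4 and 33.9 CPM in 25(OH)D. The part of the mitochondrial share and of these marker levels in the results was not tested.

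Cells build fatty acids from citrate that leaves the mitochondria. ACLY splits it into acetyl-CoA, the acetyl-CoA carboxylases ACACA and ACACB turn acetyl-CoA into malonyl-CoA, and FASN joins these units into palmitate. Elongases of the ELOVL family lengthen the chain, SCD introduces a double bond into saturated chains, FADS1 and FADS2 add further double bonds to polyunsaturated chains, and acyl-CoA synthetases such as ACSL3 activate the products for use in membranes and lipid droplets. Many of these genes are known targets of the sterol regulatory element-binding proteins, and tumour cells often express the pathway at high levels.

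To show sequences at the starts of transcripts of these genes, windows from 250 bases before to 50 bases after each RefSeq transcription start (GRCh38.p14) were searched on both strands. These windows matched 9 of the 10 genes, with 14 windows in all, and FASN was not among them. The stretches below are the parts without annotated exons for ACLY, at the start of the pathway, and for ACACA, SCD and FADS1, at later steps. The stretch of SCD ends just before the first base of the gene as the count table bounds it, whereas those of ACLY, ACACA and FADS1 precede RefSeq starts that lie inside the gene bounds given with each gene. They run 5′ to 3′ on the strand of each gene. Capitals mark CCAAT, the NF-Y box, and GGGCGG, the Sp1 box, in either orientation.
ACLY, chr17:41919023-41919272, minus strand: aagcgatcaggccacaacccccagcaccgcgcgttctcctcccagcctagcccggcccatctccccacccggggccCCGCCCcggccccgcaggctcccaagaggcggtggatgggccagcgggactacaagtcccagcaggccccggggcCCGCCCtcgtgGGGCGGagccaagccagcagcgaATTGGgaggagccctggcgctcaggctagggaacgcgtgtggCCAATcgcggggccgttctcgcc
ACACA, chr17:37359122-37359346, minus strand: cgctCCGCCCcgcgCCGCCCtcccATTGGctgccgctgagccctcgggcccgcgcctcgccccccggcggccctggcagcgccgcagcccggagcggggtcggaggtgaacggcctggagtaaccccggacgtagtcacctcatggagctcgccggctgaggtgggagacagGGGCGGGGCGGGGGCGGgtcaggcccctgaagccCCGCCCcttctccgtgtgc
SCD, chr10:100346983-100347123, plus strand: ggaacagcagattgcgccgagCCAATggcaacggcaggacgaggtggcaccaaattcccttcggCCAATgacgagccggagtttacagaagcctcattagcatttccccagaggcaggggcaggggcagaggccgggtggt
FADS1, chr11:61817198-61817253, minus strand: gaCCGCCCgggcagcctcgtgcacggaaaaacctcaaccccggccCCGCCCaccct
The NF-Y box was in 9 of the 14 windows, from 7 of the 9 genes (ACLY, ACACA, ACACB, ELOVL5, SCD, FADS2 and ACSL3) and in 34.6% of all 35116 windows of the table. The Sp1 box was in 10 of the 14 windows, from 8 genes (ACLY, ACACA, ACACB, ELOVL6, SCD, FADS1, FADS2 and ACSL3) and in 45.0% of all windows. The E-box CACGTG was found for ELOVL5 alone, against 7.26% of all windows. The sterol regulatory element core TCACNCCAC, present in 1.13% of all windows, was in none of the 14. The direct repeats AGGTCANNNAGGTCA, the arrangement best known for the vitamin D receptor, and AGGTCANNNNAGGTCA, known for the liver X receptors, were also in none of the 14, and only 0.0057% and 0.0199% of all windows held them. Windows of genes that rose and of genes that did not pass the test held the boxes, and several windows come from the same gene. The windows of ACLY overlap and hold the same boxes, so these were counted in each. The stretch printed for ACACA held 6 Sp1 boxes and 1 NF-Y box. Those of its other windows held 4 Sp1 boxes and no NF-Y box, and 2 NF-Y boxes and no Sp1 box. A match is only a description of the letters.

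Of the 10 genes, 8 rose with 25(OH)D and none fell at an adjusted p under 0.05 in the quasi-likelihood test of edgeR, with Benjamini-Hochberg adjustment over all genes tested. Across all genes tested, 17.3% rose and 16.5% fell by the same rule, 33.8% in either direction. The genes that rose were ACACA, FASN, ELOVL5, ELOVL6, SCD, FADS1, FADS2 and ACSL3, by between 1.15-fold and 1.98-fold, while ACLY and ACACB did not pass the test. The median log2 fold change was 0.57 over the 10 genes, with quartiles of 0.23 and 0.63, and -0.011 over all genes tested, with quartiles of -0.23 and 0.22. By a stricter rule, with the limits of the study's volcano plot on fold change and p (a log2 fold change beyond 1 in either direction, with p under 0.05 before adjustment), none of the 10 genes was called, against 6.65% of all genes tested, 4.02% higher and 2.63% lower. FADS1 lay just under that limit, at 0.98, and passed it at 1.05 without control replicate 2 and also without 25(OH)D replicate 2. A change at least as high as that of FADS1 was seen in 4.36% of all genes tested, and one at least as high as that of SCD in 10.5%, which included 6 of the 10 genes.

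**Figure D1:**
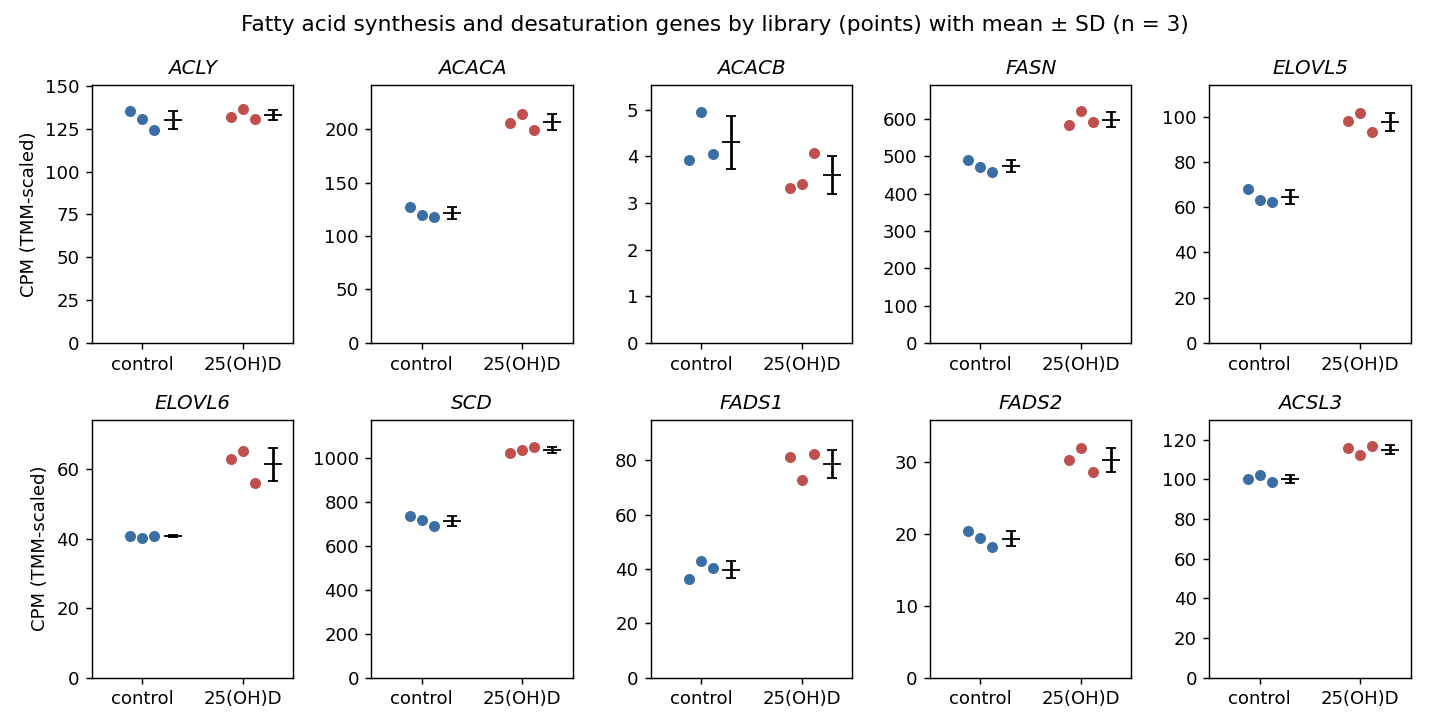
Level of each of the 10 genes in CPM on a linear axis that starts at 0, with 1 point for each control library (blue) and each 25(OH)D library (red) and the mean ± SD of 3 libraries in black. The points of the groups are apart for 8 genes and intermingle for ACLY and ACACB.

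ACLY, ATP citrate lyase, supplies the acetyl-CoA. The gene lies at chr17:41866908-41930542 on the minus strand (GRCh38). Its level was 135, 131 and 124 CPM in the control libraries and 132, 136 and 131 CPM in the 25(OH)D libraries, so the groups overlapped. The means were 130.1 ± 5.42 and 133 ± 2.93 CPM (SD, n = 3), the log2 fold change was 0.03 (SE 0.0441) with a 95% interval from -0.06 to 0.13, and the edgeR adjusted p was 0.633. The interval covers both small falls and small rises, and the sign of this value changed with the scaling of the libraries.

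The carboxylases make malonyl-CoA, ACACA mainly in the cytosol for synthesis and ACACB at the mitochondrial outer membrane, where malonyl-CoA limits the entry of fatty acids. ACACA, at chr17:37084988-37406818 on the minus strand, had 128, 119.6 and 117 CPM in control and 206, 215 and 199 CPM in 25(OH)D. All 25(OH)D libraries were well above the control libraries. Its mean went from 122 ± 5.31 to 207 ± 7.65 CPM (SD, n = 3), a 1.70-fold rise with a log2 fold change of 0.77 (SE 0.0454, edgeR adjusted p = 9.73e-09). ACACB, at chr12:109116595-109268226 on the plus strand, was low, with 3.91, 4.94 and 4.05 CPM in control and 3.33, 3.41 and 4.08 CPM in 25(OH)D, or between 117 and 187 counts. The groups overlapped, since 25(OH)D replicate 3 was above control replicates 1 and 3. Its log2 fold change was -0.26 (SE 0.157) with a 95% interval from -0.59 to 0.08 and an edgeR adjusted p of 0.238.

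FASN, fatty acid synthase, lies at chr17:82078333-82098332 on the minus strand. It had 489.9, 472 and 458 CPM in control and 585, 621 and 591 CPM in 25(OH)D, and the groups did not overlap. Its mean went from 473 ± 16.0 to 599 ± 19.2 CPM (SD, n = 3), which is 1.27-fold, with a log2 fold change of 0.34 (SE 0.0383, edgeR adjusted p = 8.09e-06). The 95% interval of its log2 fold change, from 0.26 to 0.42, lay below that of ACACA, from 0.67 to 0.86, the gene of the step before it.

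The elongases ELOVL5, which acts mainly on polyunsaturated chains, and ELOVL6, which lengthens palmitate, both rose. ELOVL5, at chr6:53267398-53349179 on the minus strand, had 68.1, 63.1 and 62.6 CPM in control and 98.1, 102 and 93.4 CPM in 25(OH)D. The lowest 25(OH)D library was far above the highest control library. The mean of ELOVL5 went from 64.6 ± 3.07 to 97.7 ± 4.07 CPM (SD, n = 3), 1.51-fold, with a log2 fold change of 0.60 (SE 0.0521, edgeR adjusted p = 5.92e-07). ELOVL6, at chr4:110045846-110199199 on the minus strand, had 40.9, 40.4 and 40.7 CPM in control and 62.9, 65.4 and 56.2 CPM in 25(OH)D. Its control libraries were nearly level, and its 25(OH)D libraries were spread more widely. The mean of ELOVL6 went from 40.7 ± 0.289 to 61.5 ± 4.77 CPM (SD, n = 3), also 1.51-fold, with a log2 fold change of 0.60 (SE 0.0613, edgeR adjusted p = 3.07e-06).

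SCD, stearoyl-CoA desaturase, which makes oleate and palmitoleate, was the most abundant of the 10 genes. The gene lies at chr10:100347124-100364834 on the plus strand and had 736, 715 and 688 CPM in control and 1021, 1037 and 1047 CPM in 25(OH)D. The groups were far apart compared with the spread within each. Its mean went from 713 ± 23.6 to 1035 ± 13.5 CPM (SD, n = 3), 1.45-fold, with a log2 fold change of 0.54 (SE 0.0346, edgeR adjusted p = 2.34e-08).

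The front-end desaturases FADS1 and FADS2, which carry out the Δ5 and Δ6 steps of polyunsaturated fatty acid synthesis, are read in opposite directions on chromosome 11, and the bounds of FADS1 lie within those of FADS2. FADS1, at chr11:61799625-61829318 on the minus strand, had 36.4, 42.8 and 40.2 CPM in control and 81.2, 72.8 and 82.1 CPM in 25(OH)D. Its mean went from 39.8 ± 3.19 to 78.7 ± 5.16 CPM (SD, n = 3), a 1.98-fold rise with a log2 fold change of 0.98 (SE 0.0675, edgeR adjusted p = 4.54e-08), the highest of the 10 genes. The 95% interval of its log2 fold change ran from 0.84 to 1.13. FADS2, at chr11:61792980-61867354 on the plus strand, had 20.4, 19.4 and 18.3 CPM in control and 30.4, 31.9 and 28.6 CPM in 25(OH)D. Its mean went from 19.3 ± 1.08 to 30.3 ± 1.67 CPM (SD, n = 3), 1.57-fold, with a log2 fold change of 0.65 (SE 0.0718, edgeR adjusted p = 6.74e-06). For both genes every 25(OH)D library was above every control library. The exons of FADS1 and FADS2 share 490 bases on opposite strands, which is 4.79% of the exon bases of FADS1 and 4.44% of those of FADS2. The library kit keeps the strand, but whether the counting used it is not given in the sources used here, and if it did not, reads in that stretch cannot be assigned. FADS2 also shares 49 bases with FEN1 on the same strand, 0.444% of its exon bases, and FEN1 had a mean of 3019 counts in control and 2192 in 25(OH)D.

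ACSL3, an acyl-CoA synthetase of the endoplasmic reticulum and lipid droplets, lies at chr2:222860934-222944639 on the plus strand. Its level was 99.98, 102 and 98.5 CPM in control and 116, 112 and 117 CPM in 25(OH)D, without overlap. The mean went from 100.3 ± 1.96 to 115 ± 2.32 CPM (SD, n = 3), 1.15-fold, with a log2 fold change of 0.20 (SE 0.0421, edgeR adjusted p = 0.00212). This was the smallest of the changes that passed the test. ACSL3 shares 1.41% of its exon bases with AC097461.4 and ACLY shares 2.99% with a clone-named gene, both on the other strand and with at most 96 counts on average in either group. The levels of the groups did not overlap for 8 of the 10 genes, as for 45.7% of all genes tested.

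**Figure D2:**
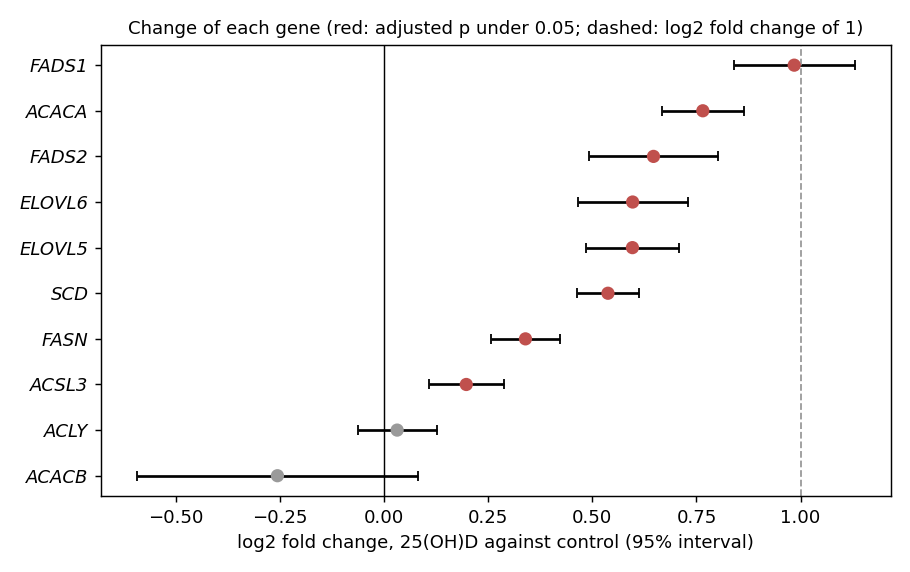
Log2 fold change of 25(OH)D against control for each of the 10 genes, ordered by size, with 95% intervals from edgeR as bars, genes at an adjusted p under 0.05 in red and the others in grey. FADS1 is at 0.98, just under the dashed line at 1, and only the intervals of ACLY and ACACB cross 0.

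Levels of different genes were compared as RPKM, counts scaled to the exon length of the gene and to the total of the library. That length covers all annotated exons, which can exceed the transcript expressed. The library ranges do not measure this, and it bears on every order and fold between genes below. In control the mean RPKM was 135 for SCD, 51.3 for FASN, 25.3 for ACLY, 17.2 for ELOVL5, 14.1 for ACSL3, 9.48 for ACACA, 5.66 for ELOVL6, 3.94 for FADS1, 1.78 for FADS2 and 0.301 for ACACB. The library ranges of neighbours in this order did not overlap. In 25(OH)D the mean RPKM was 189.9 for SCD, 62.9 for FASN, 25.2 for ELOVL5, 25.1 for ACLY, 15.6 for both ACACA and ACSL3, 8.30 for ELOVL6, 7.57 for FADS1, 2.70 for FADS2 and 0.245 for ACACB. Here the ranges overlapped between ELOVL5 and ACLY, between ACACA and ACSL3, and between ELOVL6 and FADS1, so these pairs could not be put in order. ELOVL5 and ACACA, which were below ACLY and ACSL3 in control, were level with them in 25(OH)D.

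The RPKM values of the 10 genes summed to 273, 265 and 254 in the control libraries and to 348, 361 and 351 in the 25(OH)D libraries. The ratio of the group means was 1.34. SCD and FASN together made up between 70.5% and 70.7% of the sum in control and between 71.2% and 72.2% in 25(OH)D. The share of SCD was between 51.0% and 51.2% in control and between 53.2% and 54.6% in 25(OH)D, while that of FASN was between 19.3% and 19.5% in control and between 17.6% and 18.2% in 25(OH)D. The other 8 genes summed to between 75.0 and 80.0 RPKM in control and to between 97.6 and 103 RPKM in 25(OH)D, so the higher sum did not come from SCD and FASN alone.

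**Figure D3:**
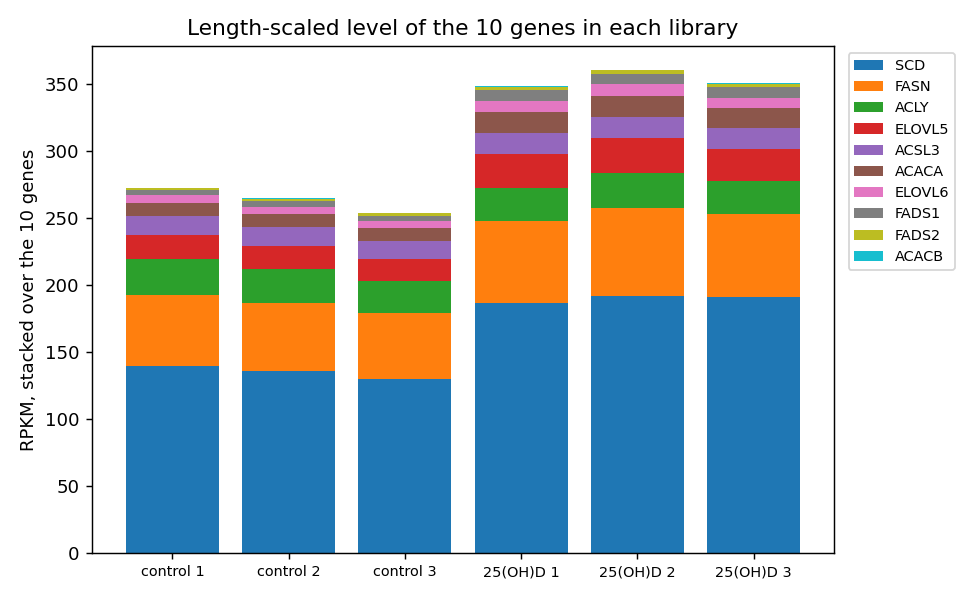
RPKM of the 10 genes stacked in each of the 6 libraries, on a linear axis from 0. The control stacks reach between 254 and 273 RPKM and the 25(OH)D stacks between 348 and 361 RPKM, with SCD and FASN as the lower layers of each.

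To compare paired steps of the pathway within a library, 5 ratios of RPKM were computed, and tested on the log2 scale with a two-sided exact permutation test of 3 libraries against 3, whose smallest possible p is 0.1. ACACA exceeded ACACB 36.3-, 27.0- and 32.4-fold in control and 69.0-, 70.2- and 54.5-fold in 25(OH)D, a difference of 1.02 in the mean log2 ratio (exact permutation p = 0.1, adjusted p = 0.167). FADS1 exceeded FADS2 1.92-, 2.38- and 2.37-fold in control and 2.88-, 2.46- and 3.09-fold in 25(OH)D, a difference of 0.34 (exact permutation p = 0.1, adjusted p = 0.167). SCD exceeded FASN 2.62-, 2.65- and 2.62-fold in control and 3.05-, 2.92- and 3.09-fold in 25(OH)D, a difference of 0.20 (exact permutation p = 0.1, adjusted p = 0.167). In these 3 ratios the groups did not overlap, and the design cannot give a smaller p. The mean log2 ratio of FADS2 to SCD was -6.24 ± 0.0330 in control and -6.14 ± 0.0893 in 25(OH)D (SD, n = 3, exact permutation p = 0.2, adjusted p = 0.25), with overlap. That of ELOVL5 to ELOVL6 was 1.60 ± 0.0605 in control and 1.61 ± 0.0554 in 25(OH)D (SD, n = 3, exact permutation p = 1, adjusted p = 1), so the difference was smaller than the spread within each group.

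The 10 genes were set beside 143 related lipid genes in 7 lists. Of these, 4 were not listed in the table, 20 were removed by the filter on low counts, and of the 119 tested 45 rose and 18 fell at an edgeR adjusted p under 0.05. The number that fell was 11 without control replicate 2 and 11 without 25(OH)D replicate 1. The median log2 fold change of the 119 was 0.11. Beside the counts of each list stand the 17.3% of all genes tested that rose and the 16.5% that fell. In no list was the median as high as the 0.57 of the 10 genes.

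**Figure D4:**
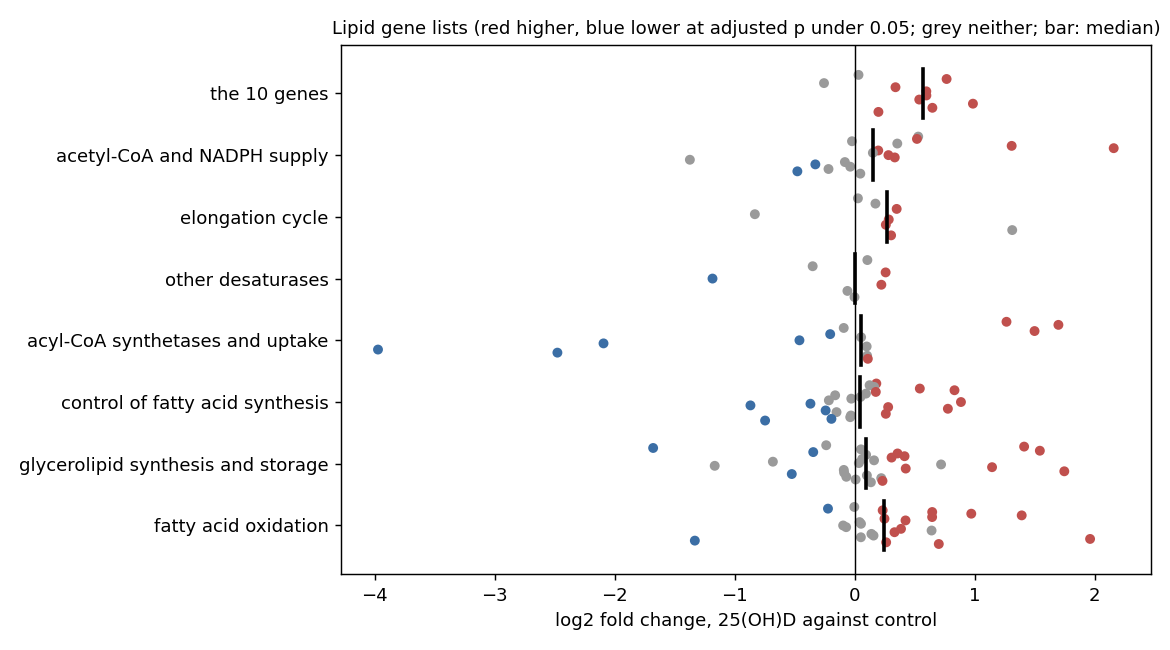
Log2 fold change of 25(OH)D against control for the tested genes of each list, with 1 point per gene (red higher and blue lower at an adjusted p under 0.05, grey neither) and the list's median as a bar. The 10 genes lie between -0.26 and 0.98 with a median of 0.57, and the medians of the 7 other lists lie between -0.0019 and 0.27.

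The list for the supply of acetyl-CoA and NADPH also held genes of mitochondrial fatty acid synthesis and of malonyl-CoA breakdown. Of its 17 tested genes 6 rose and 2 fell, with a median log2 fold change of 0.15. The 2 that fell belong to mitochondrial fatty acid synthesis. ACSS2, which makes acetyl-CoA from acetate and so serves the same step as ACLY, rose from 19.2 ± 0.343 to 27.5 ± 1.19 CPM (SD, n = 3), with a log2 fold change of 0.52 (SE 0.0669, edgeR adjusted p = 2.99e-05). SLC25A1, which carries citrate out of the mitochondria, had 32.6, 21.4 and 23.6 CPM in control and 26.4, 28.0 and 58.2 CPM in 25(OH)D, where 1 library was far above the rest, and did not pass the test (log2 fold change 0.53, SE 0.238, edgeR adjusted p = 0.106), although it passed it, at between 0.71 and 0.74, without control replicate 1, without 25(OH)D replicate 1 or without 25(OH)D replicate 2, and had 0.080 without 25(OH)D replicate 3. CBR4, a reductase of mitochondrial fatty acid synthesis, fell by 0.48 on the log2 scale (SE 0.0776, edgeR adjusted p = 2.43e-04).

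Of the other genes of the elongation cycle, 4 of 8 tested rose and none fell, with a median log2 fold change of 0.27. TECR and HSD17B12, the reductases of the cycle, had log2 fold changes of 0.30 (SE 0.0803, edgeR adjusted p = 0.00919) and 0.35 (SE 0.0773, edgeR adjusted p = 0.00274). HSD17B12 shares 6.25% of its exon bases with RP11-472I20.4 on the same strand. That gene had a mean of 595 counts in control and 695 in 25(OH)D. On the other strand HSD17B12 shares 12.1% with RP11-613D13.5 and 3.69% with RP11-613D13.10, and TECR shares 3.95% with DNAJB1. HACD2, a dehydratase of the cycle, had a log2 fold change of 0.28 (SE 0.0473, edgeR adjusted p = 3.07e-04). The elongases ELOVL1 and ELOVL7 did not pass the test, with log2 fold changes of 0.026 and 0.17. HACD1 had mean levels of 0.883 CPM in control and 0.497 CPM in 25(OH)D, with a log2 fold change of -0.83 and an edgeR adjusted p of 0.103. Among the other desaturases and their electron carriers, 2 of 7 tested genes rose and 1 fell. DEGS1, which makes ceramide, rose by 0.26 on the log2 scale, and DEGS2, which makes phytoceramide, fell by 1.18 (SE 0.150, edgeR adjusted p = 2.55e-05). SCD5 and FADS3, the relatives of SCD and of the FADS pair, had mean levels between 2.01 and 2.56 CPM and showed log2 fold changes of 0.11 and -0.35, neither past the test (edgeR adjusted p = 0.734 and 0.215).

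Among other acyl-CoA synthetases, transporters and binding proteins, 4 of 13 tested genes rose and 5 fell. ACSL1, a relative of ACSL3, rose from 226 ± 7.19 to 543 ± 15.8 CPM (SD, n = 3), with a log2 fold change of 1.26 (SE 0.0391, edgeR adjusted p = 7.06e-12), against 0.20 for ACSL3. ACSL4, which prefers arachidonate, rose from 1.17 to 3.78 CPM with a log2 fold change of 1.70 (SE 0.217, edgeR adjusted p = 2.73e-05). FABP7, a fatty acid-binding protein, fell from 2.35 to 0.414 CPM, a log2 fold change of -2.48 (SE 0.332, edgeR adjusted p = 4.35e-05).

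Among 23 tested genes that control fatty acid synthesis, 8 rose and 5 fell, with a median log2 fold change of 0.048. SREBF1, the transcription factor best known for driving these genes, rose from 207 ± 5.24 to 234 ± 6.81 CPM (SD, n = 3), a log2 fold change of 0.18 (SE 0.0394, edgeR adjusted p = 0.00255), and shares 6.92% of its exon bases with RAI1 on the other strand. Its relative SREBF2 and SCAP, the escort of both, had log2 fold changes of 0.12 and 0.16 and did not pass the test (edgeR adjusted p = 0.0713 and 0.120), although SREBF2 passed it, at 0.17, without control replicate 1 and, at 0.15, without 25(OH)D replicate 3. INSIG1 and INSIG2, which hold SCAP in the endoplasmic reticulum, both rose. INSIG1 went from 37.0 ± 2.92 to 53.9 ± 3.84 CPM (SD, n = 3), a log2 fold change of 0.54 (SE 0.0702, edgeR adjusted p = 3.09e-05), and INSIG2 from 49.8 ± 1.39 to 88.6 ± 1.95 CPM (SD, n = 3), a log2 fold change of 0.83 (SE 0.0485, edgeR adjusted p = 7.98e-09). The liver X receptor genes NR1H2 and NR1H3 had log2 fold changes of -0.029 and -0.22 and did not pass the test (edgeR adjusted p = 0.755 and 0.0655). TRIB3, a pseudokinase linked to the degradation of ACACA, fell by 0.75 on the log2 scale (SE 0.0597, edgeR adjusted p = 2.43e-07). MLXIPL, a glucose-responsive activator of lipid synthesis, had at most 4 counts in any library and was not tested.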

How the data were processed

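The 6 libraries were grouped from the sample labels, which give the treatment. The authors deposited a table of raw counts per gene and a table of RPKM values, in which each value equals the count divided by gene length and library total (largest relative difference 2.23e-13). Per the labels, their processing used Trimmomatic 0.36, featureCounts of Subread 1.5.1, edgeR 3.12.1 and GRCh38; the aligner, the annotation release and the strand setting are not given in the sources used here. The gene bounds of all 10 members equal those of GENCODE 29.

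Counts were tested with edgeR 4.0.16 in R 4.3.3 (TMM factors, default low-count filter, quasi-likelihood test without covariates) across 18183 genes, with Benjamini-Hochberg adjustment. The script was checked on simulated counts. Totals were between 33268860 and 40928176, so that 3 counts were worth between 0.0733 and 0.0902 CPM without TMM factors. Replicates were no duplicates (chi-square per gene between 4.01 and 12.1), and the first principal component, with 64.8% of the variance, separated the groups. Alternatives were other scaling, no filter, mitochondrial genes left out, DESeq2 1.42.0, the exact test of edgeR, limma 3.58.1 on log2(RPKM + 1) and log2(RPKM + 0.1), the replicate number as a block, and each library left out. Ratios were tested with a permutation written in Python 3.11.15 with numpy 2.4.6, and scipy 1.17.1 adjusted their p-values. The other steps used pandas 2.3.3 and matplotlib 3.10.9.

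The members, the lists and the tests were chosen with earlier results of these data known. The text names all members, in each list the gene with the smallest p in each direction, 22 further lipid genes whatever their values, and the 3 genes most like FASN. A further gene covered by this rule is not reported here. Columns of gene positions and lengths served for RPKM and overlaps.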

Additional observations from a re-analysis of the deposited data

How the results depend on the processing

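The 8 genes that rose at an adjusted p under 0.05 were called, in the same direction, under all 16 alternatives, and ACLY and ACACB under none. The highest adjusted p of a called gene was 0.0206, for ACSL3. The log2 fold change was between 0.79 and 1.05 for FADS1, between 0.67 and 0.81 for ACACA, between 0.41 and 0.70 for FADS2, between 0.29 and 0.37 for FASN and between 0.14 and 0.22 for ACSL3. FADS1 passed the limit of 1 without control replicate 2 and without 25(OH)D replicate 2, so that the number of members past the limits of the study was between 0 and 1 with a library left out. The log2 fold change of ACLY was -0.0099 with upper-quartile factors, -0.0126 with library sizes alone, and -0.0115 and -0.0119 with limma on log2(RPKM + 1) and log2(RPKM + 0.1). The difference in the ratio of ELOVL5 to ELOVL6 was between -0.0286 and 0.0375 with a library left out. Of the related genes, between 11 and 14 fell with a library left out (18 with all). With limma on log2(RPKM + 1), 8 of them and 313 of all genes tested were past the limits of the study, and with limma on log2(RPKM + 0.1) 14 and 856, against 18 and 1209. The cause was not tested.

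NR1H3 passed the test with upper-quartile factors, library sizes alone and limma on either RPKM scale, SREBF2 without mitochondrial genes and with the replicate block, and SLC25A1 with no filter, while TECR lost its call with limma on either RPKM scale. Small changes of related genes turned sign. ELOVL1 had -0.0158 with upper-quartile factors, -0.0170 with library sizes alone, -0.0177 and -0.0201 with limma on log2(RPKM + 1) and log2(RPKM + 0.1), and between -0.0198 and 0.110 with a library left out. CPT1A had 0.0026 with DESeq2 size factors, 0.0087 without mitochondrial genes, 0.0023 with DESeq2, and between -0.0367 and 0.0523 with a library left out. With a library left out, DGAT1 had between -0.26 (without 25(OH)D replicate 3) and 0.36, NR1H2 between -0.0634 and 0.0138 and SCD5 between -0.0159 and 0.21. The cause of these turns was not tested either. With the replicate number as a block, 8 members were higher and none lower. The numbers are not known to pair the libraries, and deviations of same-numbered libraries correlated at -0.0721, -0.0120 and -0.0460. Of the 10 genes ACACB had the fewest counts, between 117 and 187, and the widest interval.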

Other observations

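Among 28 tested genes of glycerolipid synthesis and storage, 9 rose and 3 fell at an edgeR adjusted p under 0.05, with a median log2 fold change of 0.098. Over all genes tested, 17.3% rose and 16.5% fell by this rule. PNPLA2, the triglyceride lipase of lipid droplets, rose from 35.1 to 77.5 CPM, a log2 fold change of 1.14 (SE 0.0555, edgeR adjusted p = 1.01e-09), and shares 10.4% of its exon bases with AP006621.8 on the other strand, which had a mean of 3588 counts in control and 8165 in 25(OH)D. Whether reads of the shared bases were kept apart is not known, since the strand setting of the counting is not given in the sources used here. GPAT3, which acylates glycerol 3-phosphate, fell from 2.17 to 0.670 CPM (log2 fold change -1.68, SE 0.272, edgeR adjusted p = 2.33e-04). DGAT1 and DGAT2, which make triglycerides, had log2 fold changes of 0.16 and -0.68 and did not pass the test (edgeR adjusted p = 0.638 and 0.101). DGAT1 had 5.95, 6.58 and 12.9 CPM in the 25(OH)D libraries, with 1 library far above the others, which was also the library highest for SLC25A1. DGAT1 shares 10.6% of its exon bases with GS1-393G12.12 on the same strand. PLIN2, a lipid droplet coat protein, had between 4 and 8 counts and was not tested.

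Among 23 tested genes of fatty acid oxidation, 12 rose and 2 fell, with a median log2 fold change of 0.25. ACADM, the medium-chain acyl-CoA dehydrogenase, rose from 15.4 to 40.5 CPM (log2 fold change 1.39, SE 0.0802, edgeR adjusted p = 6.98e-09). It shares 3.28% of its exon bases with RABGGTB on the same strand, which had a mean of 1783 counts in control and 2438 in 25(OH)D. CPT1A, which admits fatty acids to the mitochondria, had a log2 fold change of -0.0036 and did not pass the test (edgeR adjusted p = 0.971). CPT1B fell by 0.22 on the log2 scale (SE 0.0708, edgeR adjusted p = 0.0254), shares 66.4% of its exon bases with the readthrough gene CHKB-CPT1B on the same strand, and lost this call when any of 5 libraries was left out.

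The genes whose log2 CPM followed that of FASN most closely over the 6 libraries were UFL1, RP1-20N2.8 and FLNA, with Pearson r of 0.9989, 0.9988 and 0.9979. All 6 points share the difference between the groups, and the values are a description.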
